A study of Drosophila melanogaster with 9 samples.

Results

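The 42AB locus, a large piRNA cluster of the Drosophila germline on the right arm of the second chromosome, was cut into bins of 100 bp, and the bins with small RNAs from both strands are described here. A bin was kept where its mean level over 3 ovary libraries reached 10 rpm (reads per 1000000 miRNA reads) and its sense share, the part of its reads on the sense strand, lay above 25% and below 75%. This held for 741 bins, which are 45.1% of the 1643 bins that reached the level and 29.9% of all 2479 bins. Of the other bins, 442 were read mainly from the sense strand, 460 mainly from the antisense strand, 202 had reads under the limit and 634 had none. The both-strand bins were thus chosen by their measured level and strand share, so these values are given as a description and not as a finding.

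The 3 libraries came from ovaries of flies kept at 25°C. The first was from BX2Θ flies with the reporter P(TARGET), the second from BX2* flies without this reporter, and the third from BX2OFF flies with it. All of them carry BX2, a tandem array of the P(lacW) transgene in an intron of AGO1 on the second chromosome. BX2OFF is the state of this array that makes no piRNAs, BX2Θ makes piRNAs after flies had been raised at high temperature, and BX2* makes them after maternal inheritance of homologous piRNAs. The BX2* library had already been used in an earlier study, so genotype, reporter and the making of the library cannot be told apart. Of the 9 libraries of the series, the 6 from BX2OFF flies without P(TARGET) are not analysed here. There was 1 library per genotype, so no value below has an error between replicates, and no test between genotypes was possible. RNA came from whole ovaries, in which fewer cells of a type and less RNA per cell cannot be told apart.

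piRNAs are small RNAs bound by Piwi proteins that silence transposons in the animal germline. Clusters such as 42AB are made of old transposon copies, and in the fly germline they are transcribed from both strands, a state that depends on the chromatin protein Rhino and the transcription factor Moonshiner. Sense and antisense piRNAs of one sequence can make each other in the ping-pong cycle, in which Aubergine and Ago3 cut a transcript opposite the base that is 10 nt from the 5′ end of their guide. Ping-pong partners therefore lie on opposite strands and overlap by 10 nt at their 5′ ends. A piece of the cluster read from both strands is where such partners can be seen within the cluster itself.

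The tables of 42AB held 2093549 reads in BX2Θ, 2499783 in BX2* and 2075646 in BX2OFF, all of 18–29 nt and matching a single place. Reads of 23–29 nt, the length of piRNAs, were 93.5%, 94.1% and 92.8% of them in BX2Θ, BX2* and BX2OFF, and the length of the reads at a given position was not available. Antisense reads were 48.4% to 49.0% of the total. Positions below are those of the deposited 42AB sequence, which ends at position 247860. Its place in a genome build was not given in the sources used here, so no annotation was laid on the bins.

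The both-strand bins summed to 168765 rpm in BX2Θ, 185755 rpm in BX2* and 183570 rpm in BX2OFF. This was 31.9% of the 42AB level in BX2Θ, 28.8% in BX2* and 32.0% in BX2OFF, and thus less than their 45.1% of the bins. A both-strand bin had a median of 104 rpm in BX2Θ, 122 rpm in BX2* and 119 rpm in BX2OFF, which came from 412, 474 and 431 reads. Even the least covered of them had 28 reads in BX2Θ, 21 in BX2* and 27 in BX2OFF. Their share of the measured bins was 52.4% between 10 and 30 rpm and 54.5% between 30 and 100 rpm. It was 46.4% between 100 and 300 rpm, 37.8% between 300 and 1000 rpm, and 20.5% above 1000 rpm, where 26 both-strand bins lay. The most abundant bins of 42AB were thus mostly read from 1 strand. Within the both-strand bins, the 10 most abundant held 12.4% of the level and 96 bins held 50% of it.

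Both-strand bins were found from positions 2400–2499 to positions 240400–240499 (the map of their level by strand). The first 70 kb held 262 of them, which were 47.0% of its measured bins and 43.5% of the level of all both-strand bins. The stretch from 170 to 210 kb held 149, or 39.7% of its measured bins, with 29.9% of the level. These parts had the highest levels, with medians of 148 and 239 rpm per both-strand bin. From 210 to 240 kb both-strand bins were frequent but weak, with 159 of 281 measured bins (56.6%), a median of 60.4 rpm and 10.6% of the level. Apart from the nearly empty stretch from 110 to 130 kb, with 1 of 6 measured bins, they were scarcest between 70 and 90 kb, where 42 of 176 measured bins (23.9%) qualified and most others were read from the sense strand. From 90 to 110 kb they were 42 of 66 (63.6%). The longest stretch without a both-strand bin ran from 108500 to 128399, over 19900 bp, and held only 4 measured bins. Stretches of 9300 bp from 148900 and of 8300 bp from 97800 followed in length.

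**Figure D1:**
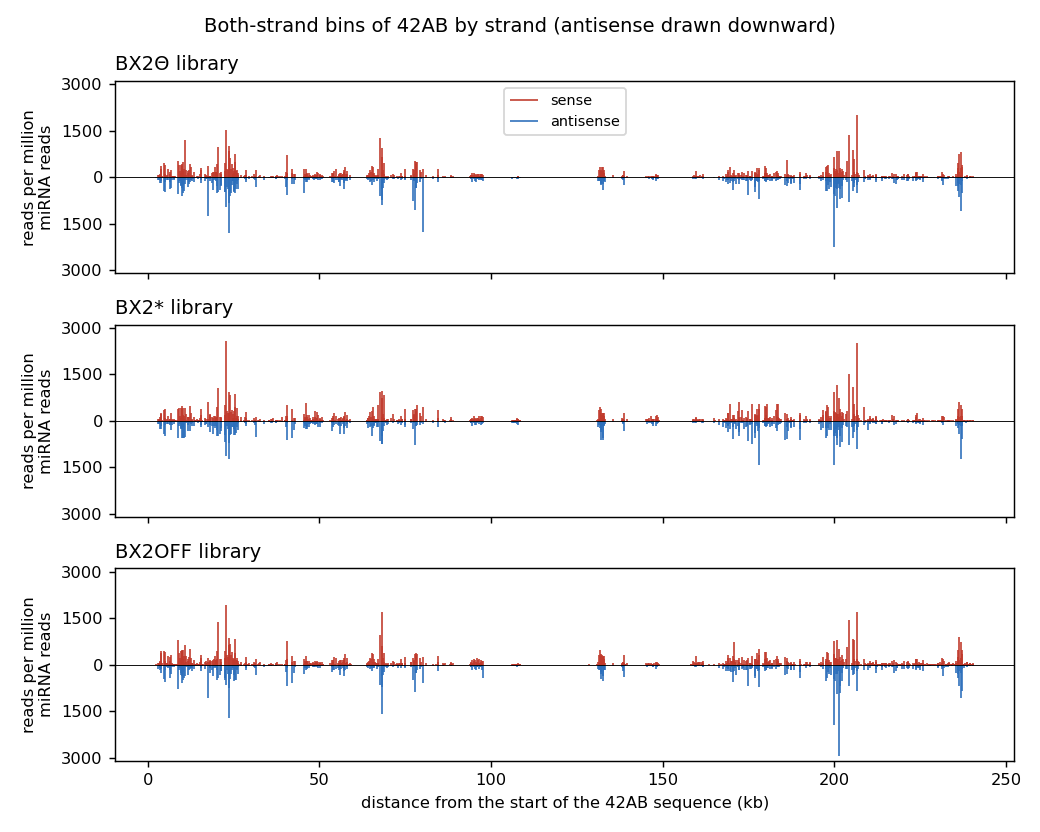
Level of each of the 741 both-strand bins on the sense strand (upward) and the antisense strand (downward), in reads per 1000000 miRNA reads, against the distance from the start of the 42AB sequence in kb, for the BX2Θ, BX2* and BX2OFF libraries. Tall bins lie in the first 70 kb, between 170 and 210 kb and near 237 kb in each library, and few bins stand between 110 and 130 kb.

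**Figure D2:**
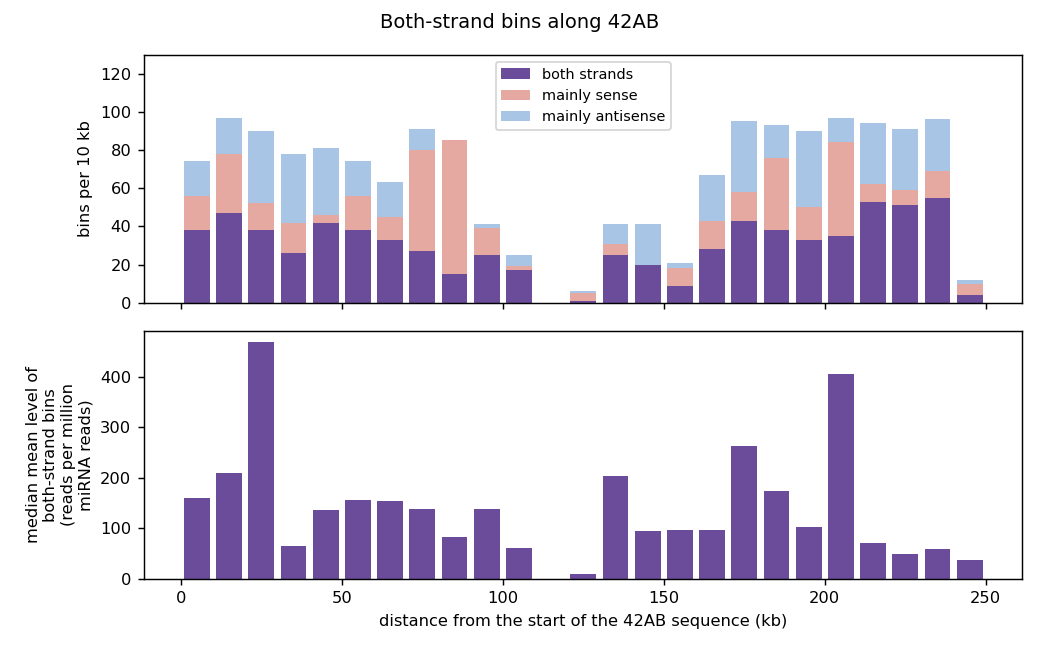
Upper panel, number of measured bins of 100 bp in each 10 kb of 42AB, by class. Lower panel, median over the both-strand bins of each 10 kb of their mean level over the 3 libraries, in reads per 1000000 miRNA reads. Both-strand bins make up 56.6% of the measured bins from 210 to 240 kb, where their median level is 60.4, and 23.9% from 70 to 90 kb.

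The 741 bins formed 388 runs, of which 205 were single bins and 183 held at least 2 bins. The longer runs took 536 of the bins (72.3%). Of the mainly sense and mainly antisense bins, 62.9% and 64.3% were in runs of their own kind, but these classes are rarer (26.9% and 28.0% of the measured bins), so the shares do not compare how strongly the classes gather. Both-strand runs stayed short, with 22 of at least 5 bins and a longest run of 9, whereas the longest sense and antisense runs had 19 and 12 bins. Of the 1482 neighbours of both-strand bins, 47.6% were both-strand bins, 21.5% mainly sense, 26.5% mainly antisense and 4.39% under the level limit. The 47.6% counts neighbours of any level, and of all bins of any level 29.9% were both-strand bins. Among the measured bins alone they were 45.1%, a base that leaves out the 65 neighbours under the limit. Only 37 both-strand bins lay directly between a sense and an antisense bin, and 131 lay between 2 bins of the same strand.

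The longest run covered positions 223400–224299. Its 9 bins summed to 1118 rpm in BX2Θ, 1105 rpm in BX2* and 1476 rpm in BX2OFF, with sense shares of 56.0%, 69.6% and 54.3% in this order. There were 5 runs of 7 bins, of which the 2 with the highest summed level are given. The first ran over 7 bins from 179700 to 180399, with 1890 rpm in BX2Θ, 2922 rpm in BX2* and 2403 rpm in BX2OFF, and with 63.0%, 64.6% and 62.7% sense reads. The other covered 45900–46599 and had 1309 rpm in BX2Θ, 2135 rpm in BX2* and 1304 rpm in BX2OFF. Its sense share was 56.8%, 54.9% and 57.7% in the same order. In these 2 runs BX2* was the highest library, while in the longest run BX2OFF was.

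The strand share held in most bins when the libraries were taken singly. In BX2Θ 672 of the 741 bins (90.7%) stayed inside the limits, in BX2* 635 (85.7%) and in BX2OFF 675 (91.1%). Bins outside by more than their 95% Wilson interval numbered 19 in BX2Θ, 45 in BX2* and 20 in BX2OFF. Such intervals cover counting error only, since reads amplified by PCR are not independent molecules. In every library, 533 bins (71.9%) were inside the limits, 175 were inside in 2 libraries and 33 in 1. The majority strand was the same in all 3 libraries for 556 bins (75%). The range of the sense share over the libraries had a median of 11.2 percentage points and a 90th percentile of 24.3 points (the plot of sense shares). Of the 264 bins with a mean sense share between 40% and 60%, 259 stayed inside the limits in each library.

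Since the rule used the mean of all libraries, it was applied again to 2 libraries at a time, and the third was then looked at. Bins chosen on BX2* and BX2OFF were inside the limits in BX2Θ for 637 of 727 (87.6%). Bins chosen without BX2* were inside in BX2* for 589 of 743 (79.3%), and bins chosen without BX2OFF were inside in BX2OFF for 618 of 712 (86.8%). Of the bins that the other libraries put mainly on 1 strand, 11.7%, 11.2% and 11.7% were inside in BX2Θ, BX2* and BX2OFF. A bin read from both strands in a pair of genotypes was thus mostly read from both in the one left out, in each of the 3 ways of leaving one out, and least often in BX2*. Applied to each library alone, the rule chose 728 bins in BX2Θ, 682 in BX2* and 733 in BX2OFF, and 519 of them in each.

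**Figure D3:**
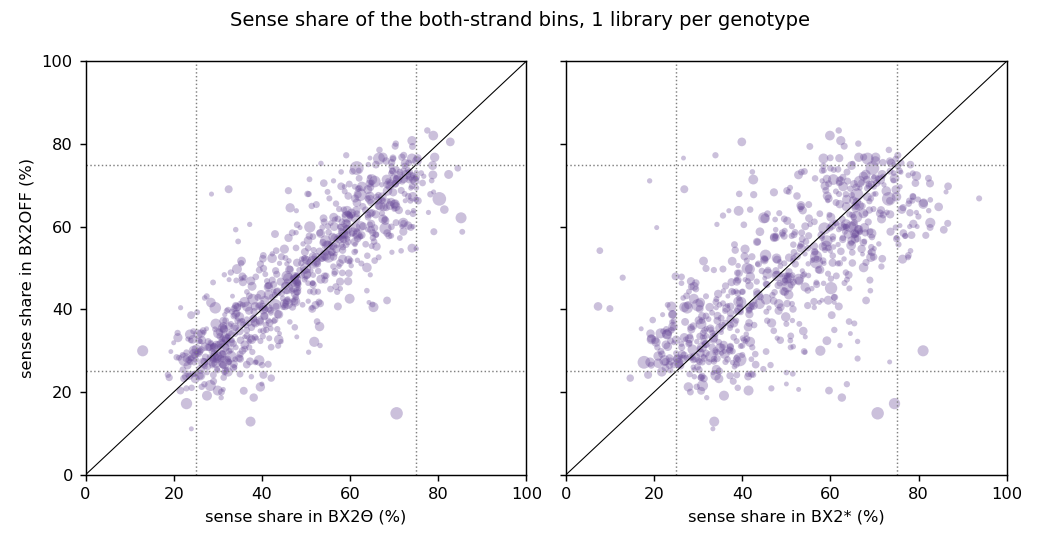
Sense share of the 741 both-strand bins in BX2Θ (left) and BX2* (right), in percent, against their sense share in BX2OFF, with 1 point per bin, sized by its mean level. The dotted lines mark the limits of 25% and 75%, and the diagonal marks equal shares. Points outside the dotted square are bins that left the limits in a library, such as 106 of 741 in BX2* and 66 in BX2OFF.

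In 35 bins the sense share ranged over more than 30 points. The library that stood apart was BX2* in 26 of them, BX2Θ in 6 and BX2OFF in 3. In 15 of the 35 a single 5′ position of that library held more than 50% of the reads on the strand whose share was higher there. A higher share can also come from fewer reads on the other strand. Over all both-strand bins, a single position held more than 50% of a strand in 17.0% (BX2Θ, antisense) to 21.6% (BX2*, antisense) of bins. That base takes each strand in each library and not only a strand with a higher share. Why the sense share of the 35 bins differed was not tested. The largest range, 68.0 points, was at positions 80100–80199, where the sense share was 13.0% in BX2Θ, 81.0% in BX2* and 30.0% in BX2OFF. Its antisense position 80180 had 4880 reads in BX2Θ, 58 in BX2* and 1398 in BX2OFF. At positions 17600–17699 the sense share was 22.9% in BX2Θ, 74.5% in BX2* and 17.2% in BX2OFF. The third, at 201400–201499, had 70.6% sense reads in BX2Θ, 70.7% in BX2* and 14.9% in BX2OFF. Its antisense position 201466 had 131 reads in BX2Θ, 95 in BX2* and 6752 in BX2OFF. The 95% Wilson intervals of these sense shares, which cover counting error only, were at most 3.31 points wide. These 3 bins were picked for their ranges, so the differences are a description of single libraries.

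The bins nearest each limit of the rule were picked by the values that the rule used, so their closeness to the limit follows from the choice. Positions 128400–128499 were inside with a mean of 10.02 rpm, and 240500–240599 were outside with 9.81 rpm. At the lower strand limit, 172100–172199 were inside with a mean sense share of 25.03% and 133200–133299 outside with 24.98%. At the upper limit, 15000–15099 were inside with 74.93% and 11400–11499 outside with 75.03%. The second bins on each side were 226300–226399 (10.2 rpm, inside) and 108600–108699 (9.76 rpm, outside), 168900–168999 (25.05%, inside) and 21700–21799 (24.96%, outside), and 230600–230699 (74.92%, inside) and 97500–97599 (75.04%, outside).

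The 10 bins with the highest mean level lay in 4 parts of the cluster, near 23, 68, 200–206 and 237 kb (the plot of the 10 bins by strand). The highest, positions 22600–22699, had 2487 rpm in BX2Θ, 3698 rpm in BX2* and 2601 rpm in BX2OFF, with sense shares of 61.5%, 69.5% and 74.2% in this order. The Wilson intervals of the sense shares of these 10 bins were at most 2.83 points wide. Positions 206400–206499 had 2507 rpm in BX2Θ, 3423 rpm in BX2* and 2543 rpm in BX2OFF. In both, BX2* was the highest and the other genotypes were close to each other.

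Positions 199700–199799 had 2905 rpm in BX2Θ, 2364 rpm in BX2* and 2685 rpm in BX2OFF, mostly antisense. Positions 204100–204199 were more even, with 2160 rpm in BX2Θ, 2279 rpm in BX2* and 2106 rpm in BX2OFF. Positions 68100–68199 had 1848 rpm in BX2Θ, 1724 rpm in BX2* and 3273 rpm in BX2OFF, and yet their sense share stayed at 51.7%, 56.9% and 51.4% in the same order. There both strands were higher in BX2OFF, with 955 rpm sense reads in BX2Θ, 980 rpm in BX2* and 1682 rpm in BX2OFF.

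Positions 23600–23699 had 2641 rpm in BX2Θ, 1480 rpm in BX2* and 2363 rpm in BX2OFF. Positions 201400–201499 had 1217 rpm in BX2Θ, 1026 rpm in BX2* and 3447 rpm in BX2OFF, and this excess was antisense. The last of the 10 were even between the genotypes. Positions 200600–200699 had 1835 rpm in BX2Θ, 1933 rpm in BX2* and 1723 rpm in BX2OFF. Positions 236700–236799 had 1892 rpm in BX2Θ, 1760 rpm in BX2* and 1810 rpm in BX2OFF. Positions 67500–67599 had 1870 rpm in BX2Θ, 1596 rpm in BX2* and 1600 rpm in BX2OFF, and its sense position 67545 alone took 71.3% to 77.7% of the sense reads.

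**Figure D4:**
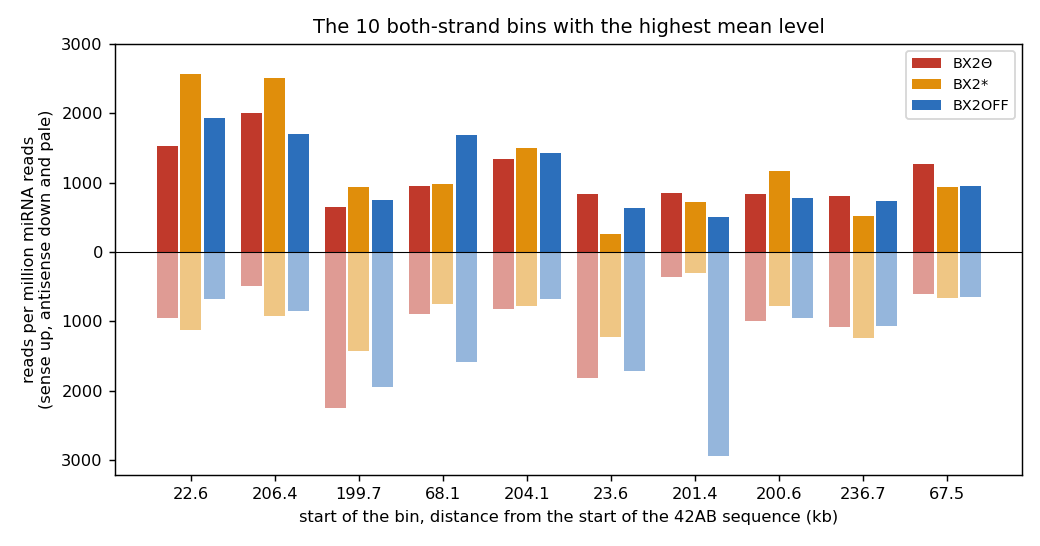
Level of the 10 both-strand bins with the highest mean level, in reads per 1000000 miRNA reads, in the BX2Θ, BX2* and BX2OFF libraries (1 library each), with sense reads drawn upward and antisense reads downward in the paler shade. Bins are ordered by mean level and named by their start in kb. The antisense level of the seventh bin is 358 in BX2Θ, 301 in BX2* and 2935 in BX2OFF.

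Levels of the both-strand bins were compared between genotypes in order to ask whether these parts of 42AB differ with the state of BX2. With 1 library per genotype, a bin was counted where its level differed at least 2-fold, and the count was set beside that over all 1643 measured bins. The comparisons share libraries. In BX2Θ against BX2OFF, 2 both-strand bins (0.270%) were at least 2-fold higher, against 0.426% of all measured bins, and 32 (4.32%) were at least 2-fold lower, against 4.99%. In BX2* against BX2OFF, 29 (3.91%) were higher, against 5.36%, and 60 (8.10%) were lower, against 7.49%. In BX2Θ against BX2*, 20 (2.70%) were higher, against 2.62%, and 59 (7.96%) were lower, against 11.0%. Most shares of the both-strand bins were near those of all bins, which include the both-strand bins themselves. The widest gap was in BX2Θ against BX2*, where 13.5% of the bins of 1 strand were at least 2-fold lower, and in BX2* against BX2OFF 6.54% of them were at least 2-fold higher. The median ratio was 0.870 in BX2Θ against BX2OFF, 1.0 in BX2* against BX2OFF and 0.915 in BX2Θ against BX2*.

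Over the 3 libraries, 382 both-strand bins stayed within 1.5-fold between the highest and the lowest, and 139 (18.8%) reached 2-fold, against 21.7% of all measured bins. In sum, the both-strand bins of BX2* were 1.01 times those of BX2OFF, whereas the bins read mainly from 1 strand were 1.18 times. In BX2Θ against BX2OFF both kinds were alike, at 0.919 and 0.927 times. All these level ratios rest on the scaling to miRNA reads. Scaled to genome-matched reads, 94 both-strand bins were past 2-fold in BX2Θ against BX2*, and scaled to 42AB reads 71, against 79 as reported. In BX2* against BX2OFF the numbers were 88 and 112, against 89.

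Most of the both-strand bins at least 2-fold lower than in BX2OFF lay at the far end of the cluster. From 210 to 240 kb, the 159 both-strand bins summed to 18432 rpm in BX2Θ, 15582 rpm in BX2* and 22977 rpm in BX2OFF. Of these bins 146 were lower in BX2Θ than in BX2OFF and 136 were lower in BX2* than in BX2OFF. At least 2-fold lower were 20 of the 32 such bins in BX2Θ and 51 of the 60 in BX2*, in a stretch that holds 159 of the 741 both-strand bins. Bins at least 2-fold lower were mostly weak. Over the whole cluster their median level was 34.3 rpm in BX2Θ and 56.9 rpm in BX2*. Only 6 of the 32 and 15 of the 60 had a mean of at least 100 rpm. The bins read mainly from 1 strand in this stretch went the same way, at 0.766 times in BX2Θ and 0.640 times in BX2* relative to BX2OFF, near the 0.802 and 0.678 times of the both-strand bins. In BX2Θ the both-strand sums were lower still in other parts. From 90 to 110 kb they were 0.744 times BX2OFF (39 of 42 bins lower). From 130 to 170 kb they were 0.772 times BX2OFF (73 of 82 lower). In BX2* the both-strand sums of these parts were 0.907 and 1.08 times BX2OFF. The low sums of BX2Θ were not confined to both-strand bins. From 90 to 110 kb the bins of 1 strand summed to 0.715 times BX2OFF in BX2Θ and 0.768 times in BX2*. From 130 to 170 kb the bins of 1 strand summed to 13437 rpm in BX2Θ, 20885 rpm in BX2* and 17915 rpm in BX2OFF. In the first 70 kb, the both-strand bins of BX2Θ and BX2* summed to 0.985 and 1.02 times those of BX2OFF, and the bins of 1 strand to 0.956 and 1.17 times. Of the 262 both-strand bins there, 134 were lower in BX2Θ than in BX2OFF and 107 were lower in BX2* than in BX2OFF. From 170 to 210 kb the both-strand bins summed to 46838 rpm in BX2Θ, 60722 rpm in BX2* and 53097 rpm in BX2OFF, so BX2* was the highest there and the lowest at 210 to 240 kb. The bins of 1 strand from 170 to 210 kb had the same order, at 0.848 times BX2OFF in BX2Θ and 1.33 times in BX2*.

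Among bins with a mean of at least 100 rpm, the largest ratios between libraries lay close together and were all highest in BX2*. Positions 172300–172399 had 201 rpm in BX2Θ, 886 rpm in BX2* and 282 rpm in BX2OFF. Their neighbour, 172200–172299, had 146 rpm in BX2Θ, 598 rpm in BX2* and 240.4 rpm in BX2OFF. Positions 176000–176099 had 313 rpm in BX2Θ, 1270 rpm in BX2* and 401 rpm in BX2OFF. In the last bin 1 antisense position, 176025, had 18 reads in BX2Θ, 2259 in BX2* and 8 in BX2OFF, and its ping-pong partner on the sense strand, 176016, had 1, 128 and 7 reads in this order.

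The overlap of sense and antisense reads was then counted, which the choice of bins did not use. For every sense 5′ end in a both-strand bin and each overlap of 1 to 29 nt, a pair was counted as the smaller of the 2 read numbers. The z-score of an overlap is its number of pairs minus the mean over all overlaps, divided by their SD, and 29 overlaps cannot give more than 5.20. At 10 nt there were 71856 pairs in BX2Θ, 73686 in BX2* and 68925 in BX2OFF, with z-scores of 4.93, 4.93 and 4.87. This was 2.44, 2.58 and 2.41 times the mean of the other overlaps in BX2Θ, BX2* and BX2OFF. The next highest overlap, at 23 or 24 nt, had a z-score of at most 0.366. Relative to the sense reads, the 10 nt pairs were 22.0% in BX2Θ, 20.5% in BX2* and 21.6% in BX2OFF, against 9.02%, 7.95% and 8.97% at a mean other overlap. As a pair takes the smaller read number, this is not the share of sense reads that have a partner. It also follows the balance of the strands, with 37.4% in mainly antisense and 5.51% in mainly sense bins of BX2Θ.

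Bins read mainly from 1 strand had the same peak, at 2.06 times the other overlaps in BX2Θ, 2.22 in BX2* and 2.07 in BX2OFF. The both-strand bins held 52.7% of all 10 nt pairs of 42AB in BX2Θ, 52.8% in BX2* and 52.9% in BX2OFF, with 28.8% to 32.0% of the 42AB level. At a mean other overlap they held 29422.7 of 60852.9 pairs in BX2Θ, 28524.5 of 58246.7 in BX2* and 28633.6 of 58208.1 in BX2OFF. More pairs of any overlap are possible where both strands have reads, so most of this share is set by the choice of bins. The excess also grew with the level. When the both-strand bins were split into 4 equal groups by level, the ratio in the lowest group was 1.44 in BX2Θ, 1.52 in BX2* and 1.34 in BX2OFF, and in the highest group it was 2.80, 2.98 and 2.81. For the bins of 1 strand at the same levels it was 1.18, 1.21 and 1.08 in the lowest range and 2.20, 2.38 and 2.26 in the highest. By this pair count, the both-strand bins were higher in every library in each of the 4 groups. The groups were matched on the level of both strands together and not on that of the scarcer strand, and the difference has no error between replicates.

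The peak was carried by abundant positions. When each pair of positions was counted once whatever its reads, 10 nt was 1.07 times the other overlaps in BX2Θ, 1.08 in BX2* and 1.06 in BX2OFF, and the highest overlap was 22 or 23 nt. When the most abundant position of each strand was left out of each bin, the ratio was 1.31 in BX2Θ, 1.31 in BX2* and 1.32 in BX2OFF, against 1.22, 1.25 and 1.20 in the bins of 1 strand.

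Most single bins had only a slight excess at 10 nt. In the 633 both-strand bins with at least 100 pairs in each library, 10 nt held a median of 4.84% of the pairs in BX2Θ, 5.02% in BX2* and 4.81% in BX2OFF, where an equal share would be 3.45%. It was the highest overlap in 192 of them in BX2Θ, 192 in BX2* and 158 in BX2OFF. In 115 bins (18.2%) it was highest in all 3 libraries, against 14.6% of the bins of 1 strand, and in 381 it was highest in none.

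The highest 10 nt shares came from bins with 1 dominant pair. At positions 148100–148199, 10 nt held 52.9% of the pairs in BX2Θ, 53.6% in BX2* and 51.4% in BX2OFF, from sense position 148134 and antisense position 148143. At 206400–206499 it held 38.8% in BX2Θ, 51.8% in BX2* and 61.0% in BX2OFF. There, sense position 206429 had 4227 reads in BX2Θ, 6737 in BX2* and 3844 in BX2OFF, and antisense position 206438 had 1833, 3377 and 2975 reads in the same order. At 180200–180299, within the run from 179700, it held 38.6% in BX2Θ, 47.8% in BX2* and 35.3% in BX2OFF, with partners at 180255 and 180264. In these bins the same partner positions led both strands in every library.

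The lowest shares also came from few positions. Positions 139400–139499 had 0 of 240 pairs at 10 nt in BX2Θ, 0 of 338 in BX2* and 1 of 314 in BX2OFF, where a count of 0 allows up to 1.25% in BX2Θ and 0.888% in BX2*, and their highest overlap was 23 nt in each library, set by antisense position 139457 and sense position 139435. Positions 202800–202899 had 2 of 653 pairs at 10 nt in BX2Θ, 2 of 650 in BX2* and 2 of 521 in BX2OFF, with 21 nt as the highest overlap. Positions 51100–51199 had 0.885% in BX2Θ, 0.498% in BX2* and 0.816% in BX2OFF, at a mean level of 33.9 rpm.

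The most abundant sense and the most abundant antisense position of a bin were 10 nt partners in 84 both-strand bins in BX2Θ (11.3%), 100 in BX2* (13.5%) and 80 in BX2OFF (10.8%), and no other distance was met in more than 16. The bins of 1 strand had nearly the same shares, with 11.0% in BX2Θ, 13.1% in BX2* and 10.7% in BX2OFF. In 43 bins (5.80%) it was the same pair in all 3 libraries. At 204100–204199, sense position 204174 had 4479 reads in BX2Θ, 4958 in BX2* and 4509 in BX2OFF, and antisense position 204183 had 2123, 2120 and 1569. At 68200–68299, sense position 68232 had 1912 reads in BX2Θ, 2163 in BX2* and 1573 in BX2OFF, and its partner 68241 had 1839, 1892 and 1676. In the bin at 23600, by contrast, both partners were lower in BX2*. Sense position 23628 had 1570 reads in BX2Θ, 348 in BX2* and 1047 in BX2OFF, and antisense position 23637 had 4753, 1972 and 4466. Further such pairs lay at 237117 with 237126 and at 132605 with 132614.

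Partner positions also differed together between genotypes. A sense position of at least 100 reads in one library whose level was at least 10-fold lower in another was looked up in both-strand bins, together with the antisense 5′ ends that overlap it and had at least 20 reads in the first library. At an overlap of 10 nt, the antisense end was at least 5-fold lower too in 89 of 91 such comparisons (97.8%, Wilson interval 92.3% to 99.4%), which came from 54 sense positions in 44 bins. At all other overlaps of 1 to 29 nt together, this was so in 22 of 238 (9.24%). In bins read mainly from 1 strand it was 56 of 68 (82.4%) at 10 nt and 14 of 285 (4.91%) at the others. A position can enter more than once, since each pair of libraries counts, so the interval is too narrow. This comparison was chosen after pairs of this kind had been seen.

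**Figure D5:**
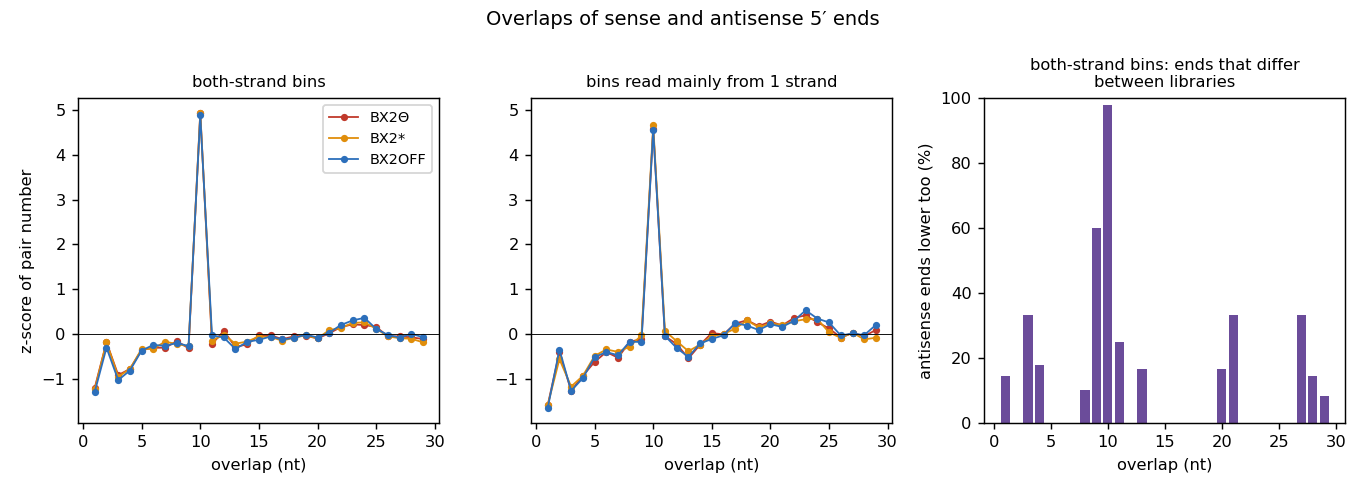
Left and middle, z-score of the number of sense and antisense pairs at each overlap of their 5′ ends (nt) in the both-strand bins and in the bins read mainly from 1 strand, for the BX2Θ, BX2* and BX2OFF libraries. Right, for sense positions of both-strand bins that were at least 10-fold lower in one library than in another, the share (%) of overlapping antisense ends that were at least 5-fold lower too. The bar at 10 nt is 97.8% (89 of 91), and the next highest, 60% at 9 nt, rests on 5 comparisons.

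In both-strand bins 135 pairs at 10 nt had at least 100 reads on each strand in some library, and 33 of them were at least 10-fold lower, by the scarcer strand, in another library. For 7 of the 33, the library in which the pair was scarce had another pair of this strength within 5 nt, with the overlap kept. These 7 are not separate sites. The pairs at sense positions 17672 and 17675, 22619 and 22621, and 23512 and 23514 are each the near pair of the other and count from both sides. In the bin at 22600, sense position 22621 had 4820 reads in BX2Θ, 8186 in BX2* and 341 in BX2OFF, and its antisense partner 22630 had 1390, 1428 and 99. In the same bin, 2 nt away, sense position 22619 had 463 reads in BX2Θ, 320 in BX2* and 5794 in BX2OFF, and its partner 22628 had 12, 0 and 201. The larger of these 2 pairs in BX2OFF thus lay 2 nt from the larger one in the other genotypes. It was not the main overlap of the bin in BX2OFF, where 10 nt held 6.63% of the pairs and the highest overlap was 14 nt. In BX2Θ and BX2* 10 nt was the highest, with 21.0% and 21.6%.

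In the bins at 23500 and 17600 it was BX2* that differed. Sense position 23512 had 3497 reads in BX2Θ, 33 in BX2* and 2620 in BX2OFF, and its partner 23521 had 2199, 13 and 1663. Sense position 23514 had 43 reads in BX2Θ, 3001 in BX2* and 37 in BX2OFF, and its partner 23523 had 12, 1337 and 8. Sense position 17672 had 575 reads in BX2Θ, 2 in BX2* and 409 in BX2OFF, and its partner 17681 had 4517, 88 and 3644. The pair 3 nt away, 17675 with 17684, had 7 sense and 3 antisense reads in BX2Θ, 672 and 331 in BX2*, and 29 and 1 in BX2OFF.

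Other pairs were scarce in a genotype that had no such pair within 5 nt. At 200100–200199, sense position 200166 had 418 reads in BX2Θ, 0 in BX2* and 356 in BX2OFF, and its partner 200175 had 193, 0 and 160. A count of 0 allows up to 3 reads, or 0.774 rpm in BX2*. At 201400–201499, sense position 201472 had 1682 reads in BX2Θ, 896 in BX2* and 63 in BX2OFF, and its partner 201481 had 234, 203 and 9. The pair 201482 with 201491 had 0 sense and 1 antisense reads in BX2Θ and none in BX2*, against 125 and 326 in BX2OFF. Of the 33 pairs, 10 were highest in BX2Θ, 11 in BX2* and 12 in BX2OFF, and 13 were lowest in BX2Θ, 14 in BX2* and 6 in BX2OFF. What sets these differences was not tested, and the sequence of the flies used for each library was not available.

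Loss of a whole position was rare. Of 752 positions of both-strand bins with at least 200 reads in a library, 6 had no read in another, against 9 of 1565 in the bins of 1 strand. Sense position 10845, for example, had 1445 reads in BX2Θ, 0 in BX2* and 6 in BX2OFF, and sense position 24769 had 0 in BX2Θ, 202 in BX2* and 2 in BX2OFF.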

How the data were processed

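Per the labels and methods, the small RNA fraction of dissected ovaries (20 pairs per genotype) was made into TruSeq libraries. The authors aligned reads with Bowtie to release 5.49 of the genome (the submitters' processing notes name Bowtie2 2.0.3) and kept unique matches of 18–29 nt. The deposited values, treated here as a score, are signed reads multiplied by a factor of 0.253 (BX2Θ), 0.258 (BX2*) or 0.276 (BX2OFF) that scales a library to 1000000 miRNA reads, with antisense negative. Division by the factor gave whole reads for 100% of values (tolerance 0.001). Reads were summed per strand in bins of 100 bp. No count model was used, because each genotype had 1 library. Wilson intervals have 95% confidence. The scripts were tested on simulated data. Python 3.11.15, numpy 2.4.6, pandas 2.3.3, scipy 1.17.1 and matplotlib 3.10.9 were used.

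The bins and tests were chosen with earlier results of these data known. Regions named are the 10 with the highest mean level, the 3 longest runs (ties by summed level), the 3 highest and 3 lowest 10 nt shares among bins with at least 100 pairs in each library, the 3 largest ratios between libraries among bins of at least 100 rpm, the 2 bins just inside and outside each limit, and their most abundant positions. Others were chosen after values were seen. Alternatives were other limits, bins, scalings, pair counts and leaving out each library.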

Additional observations from a re-analysis of the deposited data

How the results depend on the processing

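Of 112 alternative values, 78 stayed within 1.5 times the reported count, within 1 SD over the libraries or within the Wilson interval. These measures are uneven: 1109 both-strand bins of 50 bp, against 741 as reported, passed, and the Wilson interval is too narrow. Leaving out a library changed the choice of bins and the 10 nt values. The counts inside the limits and past 2-fold still used all 3 libraries, so they had little room to change. No paired analysis was possible because there is 1 library per genotype and no result comes from a test. With sense shares between 0.33 and 0.67 there were 465 both-strand bins, 283 of them inside the limits in each library and 238 in runs, with 21, 49 and 43 past 2-fold (BX2Θ against BX2OFF, BX2* against BX2OFF, BX2Θ against BX2*), a mean 10 nt z-score of 4.80 and a 10 nt share of 7.77%, against 8.13% as reported. Bins of 200 bp gave 425, 318 and 321 bins and 18, 49 and 44 past 2-fold, and bins of 50 bp gave 145 and 131 past 2-fold in the comparisons with BX2* and a z-score of 4.96. The fewer or smaller bins follow from these settings. The mean z-score of 4.91 was 4.63 over overlaps of 1 to 26 nt (share 9.04%), 5.18 with the product of the read numbers (41.8%), 5.03 with both ends in both-strand bins, 3.10 without the most abundant positions (4.48%) and 1.16 when a pair of positions counted as 1 whatever its reads (3.68%), so the size of the 10 nt peak depends on how abundant positions are weighted. Leaving out each library gave z-scores of 4.87 to 4.92. The share of 10 nt partners that were lower together, 97.8%, was 88.7% for sense positions at least 5-fold lower, 86.8% for antisense positions at least 10-fold lower, 100% for sense positions of at least 200 reads, for those at least 20-fold lower and for antisense positions of at least 50 reads, and 94.7% to 100% with each library left out. These last alternatives were chosen after seeing the data. The cause of the other shifts was not tested. Depth limits the weakest bins, whose 21 to 28 reads leave their strand share wide.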
